A study of Mus musculus with 4 samples.

Results

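The colony-stimulating factors and their receptors were represented by 8 genes, the ligand genes Csf1, Csf2 and Csf3 and the receptor genes Csf1r, Csf2ra, Csf2rb, Csf2rb2 and Csf3r. They were taken by gene name from a table of 54532 genes, and all 8 had at least 10 counts in at least 1 library, as had 16367 genes in all. RNA was sequenced from CD11b+Ly6g+ cells, gated as granulocytic myeloid-derived suppressor cells (MDSCs), which were sorted from the lungs of C57BL/6 mice aged 6 to 8 weeks. All groups, Ctrl included, received 300 µL per mouse per day of medium conditioned by B16F10 mouse melanoma cells for 10 days and B16F10 cells by tail vein on day 7, and the lungs were taken on day 10. The Ctrl group received no peptide, and the other groups received TP5, sFD17 or FR17 at 40 µM/kg/day from day 3. TP5 is thymopentin, an immunomodulating pentapeptide of the thymic hormone thymopoietin. FR17 carries TP5 on a self-assembling peptide backbone through a linker that matrix metalloproteinase 2 cuts, and sFD17 has the same build with the TP5 residues in scrambled order. Each group was 1 library made from 10 to 12 pooled mice, and mice without tumor-conditioned medium were not analysed here. There was therefore no replicate check, the effect of a peptide and that of its single library cannot be told apart, and no test between groups was possible.

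Colony-stimulating factors are the cytokines under which myeloid precursors survive, divide and mature. M-CSF, encoded by Csf1, signals through the receptor tyrosine kinase CSF1R of monocytes and macrophages, and G-CSF, encoded by Csf3, signals through the cytokine receptor CSF3R of neutrophils. GM-CSF, encoded by Csf2, binds a specific α chain (Csf2ra) paired with the common β chain (Csf2rb), which IL-3 and IL-5 also use, and the mouse has a second β chain gene, Csf2rb2, whose product serves IL-3 alone. In tumor-bearing mice G-CSF and GM-CSF are known as drivers of the production and release of granulocytic MDSCs.

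The libraries held 15543071 (sFD17) to 19638228 (FR17) counts. Levels are CPM, counts per 1e+06 counts of a library total scaled by edgeR's trimmed mean of M-values, and levels of different genes are set side by side only as CPM per kb of gene length. A gene was called at a fold change of at least 2, and each ratio of CPM has an exact 95% interval that covers counting error alone and not the variation between mice, sorts or libraries. The sorted identity was visible in every library. Itgam, which encodes CD11b, had 302 to 433 CPM and Ly6g had 73.1 to 111 CPM, and the 16 neutrophil markers together had 32800 to 50500 CPM. The 16 macrophage markers together reached 8530 CPM in FR17, 6650 in Ctrl, 5340 in TP5 and 2430 in sFD17, so that transcripts of other lung cells were present as well. In such bulk libraries, fewer cells of a type and less RNA per cell cannot be told apart.

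The receptor genes far outweighed the ligand genes. Per kb, the 5 receptor genes summed to 2230 CPM in Ctrl and the 3 ligand genes to 80.7 CPM, a ratio of 27.7. The same ratio came to 30.9 in FR17, 25.4 in TP5 and 19.6 in sFD17. Csf3r alone made up 59.3% of the per-kb level of the 8 genes in Ctrl, 54.1% in TP5, 61.3% in sFD17 and 48.3% in FR17. In each library the receptor genes ran from Csf3r, with the highest level per kb, through Csf2ra, Csf1r and Csf2rb to Csf2rb2, and Csf1 was the highest of the ligand genes and Csf2 the lowest. This order depends on the gene length used. Csf2rb was given 7277 bases, while its longest coding transcript has 4900, and the shorter length would raise its level per kb.

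**Figure D1:**
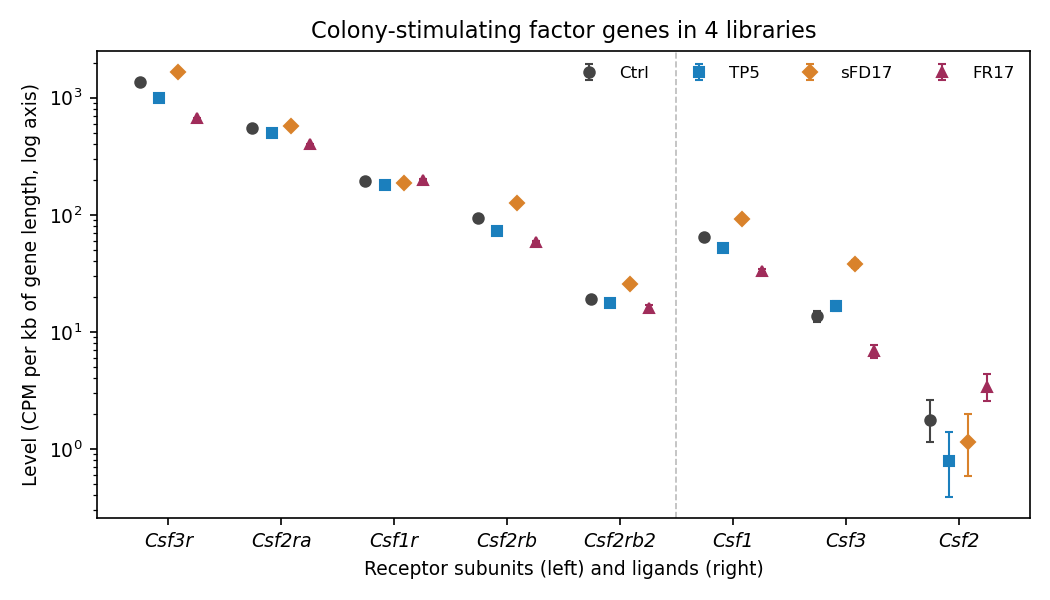
Level of each gene in CPM per kb of gene length (log axis) in the Ctrl, TP5, sFD17 and FR17 libraries, with exact 95% Poisson intervals of the count as bars, most of them smaller than the symbol. Csf3r lies highest, between 668 CPM per kb in FR17 and 1650 in sFD17, and Csf2 lowest, between 0.784 in TP5 and 3.38 in FR17.

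Csf3r (ENSMUSG00000028859, GRCm38.p6 chr4:126024550-126044440, plus strand), the G-CSF receptor gene, was counted 83644 times in Ctrl, 62645 in TP5, 78491 in sFD17 and 55305 in FR17. Its level was 4950 CPM in Ctrl, 3570 in TP5, 5950 in sFD17 and 2410 in FR17, highest in the scrambled peptide library and lowest in FR17. By CPM per kb it ranked 30 of the 16367 genes in Ctrl and in sFD17, 45 in TP5 and 56 in FR17. In FR17 it stood at 0.487 of its Ctrl level (0.481 to 0.492), a log2 fold change of −1.04 at the 3.14 percentile of all genes. It was the 1 member at least 2-fold lower in FR17 than in Ctrl, where 3.57% of all genes were lower by that fold, and no member was at least 2-fold higher, where 3.91% of all genes were. That call lies close to the threshold. Scaling by library size alone gave −0.79 and centring on the neutrophil markers gave −0.94. In TP5 Csf3r stood at 0.721 of Ctrl (0.714 to 0.729) and in sFD17 at 1.20 (1.19 to 1.21), which centring on the neutrophil markers turned to a log2 fold change of −0.22.

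The promoter of Csf3r is shown with that of Csf2ra because both are highly expressed receptor genes whose libraries stood in the same order. Capitals mark GAGGAA on either strand, the core bound by PU.1 (Spi1), a transcription factor known to drive myeloid receptor genes. The sequences are from RefSeq (GRCm38.p6) and run from 250 bases before to 50 bases after the RefSeq start site, on the gene's strand.
Csf3r, chr4:126024409-126024708, plus strand: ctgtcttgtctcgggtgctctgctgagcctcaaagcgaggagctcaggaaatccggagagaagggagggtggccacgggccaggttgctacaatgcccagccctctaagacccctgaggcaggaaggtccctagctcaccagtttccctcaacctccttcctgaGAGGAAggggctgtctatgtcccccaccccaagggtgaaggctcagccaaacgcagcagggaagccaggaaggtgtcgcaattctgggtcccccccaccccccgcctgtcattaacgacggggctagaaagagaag
Csf2ra, chr19:61228369-61228668, minus strand: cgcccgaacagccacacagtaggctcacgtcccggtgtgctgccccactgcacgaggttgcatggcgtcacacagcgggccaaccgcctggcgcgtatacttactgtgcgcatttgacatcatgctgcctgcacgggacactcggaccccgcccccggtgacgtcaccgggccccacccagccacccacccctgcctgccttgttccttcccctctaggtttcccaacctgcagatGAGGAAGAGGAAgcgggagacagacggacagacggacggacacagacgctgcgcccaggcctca
Of the 5 members with a promoter in the table, Csf3r held the core once, 86 bases before the RefSeq start site. Csf2ra held it 2 times, at 14 and 8 bases before the RefSeq start site, and Csf2rb2 held it 2 times. The RefSeq start site of Csf3r lies downstream of the counted gene's start at 126024550, and the core lies inside the counted gene. Csf1 and Csf2 did not hold the core in their windows. The Csf2 window, chr11:54249850-54250149, lies wholly before the counted gene, which starts at 54249667 on the minus strand. The bases directly before that start were therefore not searched for any motif. Of all 32851 promoters in the table, 28.3% held the core. Of the other motifs searched on both strands, TTGCNNAA (C/EBP) occurred 1 time in Csf2 and in 10.8% of all promoters, TGANTCA (AP-1) in none of the 5 and in 7.81%, and a loose NF-κB motif 5 times in Csf1, 3 in Csf3r, 2 in Csf2ra and 1 in Csf2, overlapping matches included, and in 50.8%. Spi1 itself had 857 CPM in Ctrl, 767 in TP5, 1010 in sFD17 and 640 in FR17.

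Relative to the summed neutrophil markers, Csf3r was lower with each peptide, by an amount that depended on the marker. It gave 0.133 counts per neutrophil marker count in Ctrl, 0.0878 in TP5, 0.118 in sFD17 and 0.0734 in FR17, or 0.661, 0.887 and 0.553 of its Ctrl value. Without S100a9, the most abundant marker, the same values were 0.635, 0.858 and 0.548. Set against each of the 16 markers alone, an alternative chosen after seeing the data, Csf3r was below its Ctrl ratio for all 16 in TP5 (0.389 to 0.992 of Ctrl), 14 in sFD17 (0.727 to 1.21) and all 16 in FR17 (0.337 to 0.913). Per Cxcr2 count it stayed close to Ctrl, at 0.992, 0.958 and 0.898. The neutrophil markers themselves differed in direction, with 11 of 16 higher than Ctrl in TP5, 15 in sFD17 and 6 in FR17. Cxcr2, a chemokine receptor of mature neutrophils, had log2 fold changes against Ctrl of −0.46 in TP5, 0.33 in sFD17 and −0.88 in FR17, while Camp, Ltf and Ngp, genes of the granules that neutrophils fill while maturing, had 0.89, 0.82 and 0.78 in TP5, 0.50, 0.58 and 0.52 in sFD17 and 0.53, 0.44 and 0.31 in FR17. These 4 markers were picked after their values were seen, and their part in the Csf3r result was not tested. Among 9798 other genes with at least 50 counts in every library, 118 stayed within 0.25 of Csf3r in all 3 log2 fold changes against Ctrl, and the closest were Atp7a, Gcnt2 and Chst11. Atp7a, a copper transporter gene, differed from Csf3r by at most 0.0521 on the log2 scale.

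Csf1r (ENSMUSG00000024621, GRCm38.p6 chr18:61105572-61132149, plus strand), the M-CSF receptor gene, kept nearly the same level in the 4 libraries. It was counted 16058 times in Ctrl, 15428 in TP5, 11959 in sFD17 and 22343 in FR17, or 951, 880, 906 and 973 CPM. Against Ctrl its log2 fold change was 0.03 in FR17, −0.07 in sFD17 and −0.11 in TP5, and other scalings and filters gave 0.03 to 0.28, −0.55 to −0.03 and −0.22 to −0.06. The macrophage markers in the same libraries did vary, and their sum stood at 0.804 of Ctrl in TP5, 0.366 in sFD17 and 1.28 in FR17. In sFD17 all 16 of them were lower than in Ctrl. The summed monocyte markers stood at 1.03, 1.15 and 0.861 of Ctrl in TP5, sFD17 and FR17, with 8, 6 and 7 of the 10 higher than Ctrl. Nr4a1 weighed most in that sum, with 41686 of 77759 counts in Ctrl and 45776 of 70033 in sFD17. Csf1r per macrophage marker count was therefore 2.61 times Ctrl in sFD17, 1.15 times in TP5 and 0.798 times in FR17, and the part of these cells in the Csf1r level was not tested. Between the receptors of both lineages, the count ratio of Csf3r to Csf1r, which no scaling between libraries can change, was 5.21 in Ctrl (5.12 to 5.30), 4.06 in TP5 (3.99 to 4.13), 6.56 in sFD17 (6.44 to 6.69) and 2.48 in FR17 (2.44 to 2.51). In exon sequence Csf1r shares 873 bases with Hmgxb3 on the opposite strand, a gene with 217 to 336 counts, and whether strand was used in counting is not given in the sources used here.

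The GM-CSF receptor chain genes, like Csf3r, had their highest TMM-scaled CPM in sFD17 and their lowest in FR17. Csf2ra (ENSMUSG00000059326, GRCm38.p6 chr19:61224402-61228418, minus strand) had 1020 CPM in Ctrl, 925 in TP5, 1060 in sFD17 and 737 in FR17. Csf2rb (ENSMUSG00000071713, chr15:78325752-78353847, plus strand) had 685, 531, 911 and 423 CPM in the same order of libraries. FR17 thus held 0.723 of the Ctrl level of Csf2ra (0.707 to 0.738) and 0.617 of that of Csf2rb (0.601 to 0.634). In sFD17 the ratio to Ctrl was 1.04 for Csf2ra (1.02 to 1.06) and 1.33 for Csf2rb (1.30 to 1.36), and in TP5 it was 0.907 and 0.774. None of these differences reached 2-fold, and the direction in sFD17 depended on the scaling. By library size alone the log2 fold change of Csf2ra there turned from 0.06 to −0.16, and with neutrophil marker centring Csf2ra had −0.43 and Csf2rb −0.07. Per neutrophil marker count, Csf2ra stood at 0.831 of Ctrl in TP5, 0.768 in sFD17 and 0.821 in FR17, while Csf2rb stood at 0.710, 0.982 and 0.701.

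Csf2rb2 (ENSMUSG00000071714, GRCm38.p6 chr15:78282507-78305721, minus strand), the IL-3-specific β chain gene, lies 20030 bases from Csf2rb and was counted 1523 times in Ctrl, 1463 in TP5, 1607 in sFD17 and 1744 in FR17. Its level was 90.2, 83.4, 122 and 76.0 CPM, and its log2 fold change against Ctrl was 0.43 in sFD17, −0.11 in TP5 and −0.25 in FR17. Neutrophil marker centring gave −0.05 in sFD17, and library size alone gave 0.00 in FR17. The count ratio of Csf2rb2 to Csf2rb was 0.132 in Ctrl (0.125 to 0.139), 0.157 in TP5 (0.149 to 0.166), 0.134 in sFD17 (0.127 to 0.141) and 0.180 in FR17 (0.171 to 0.189). The level of either gene alone is uncertain because they are near-identical copies. Over 2631 aligned coding bases they are 95.2% identical, and 19.0% of the windows of 50 bases in the Csf2rb2 transcript also occur in the Csf2rb transcript, as do 7.20% of those of 100 bases and 3.59% of those of 150 bases. The longest run shared without a mismatch, 242 coding bases in both genes, is shown because a read inside it cannot be assigned to either.
Csf2rb, chr15:78348577-78348818, plus strand, and Csf2rb2, chr15:78284630-78284871, minus strand: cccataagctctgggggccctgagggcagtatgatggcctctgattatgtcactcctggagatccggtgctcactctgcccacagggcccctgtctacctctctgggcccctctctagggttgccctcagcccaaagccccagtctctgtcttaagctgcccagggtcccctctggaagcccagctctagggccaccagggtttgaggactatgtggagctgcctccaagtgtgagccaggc
The 90 coding bases with the most mismatches, where reads can be told apart, are shown for both genes with the 16 mismatched bases in capitals.
Csf2rb, chr15:78338897-78338986, plus strand: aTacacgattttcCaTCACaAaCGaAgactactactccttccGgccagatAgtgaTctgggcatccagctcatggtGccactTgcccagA
Csf2rb2, chr15:78294345-78294434, minus strand: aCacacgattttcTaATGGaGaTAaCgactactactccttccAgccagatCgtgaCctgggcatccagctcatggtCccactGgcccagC
How reads that match both copies were counted is not given in the sources used here, and if they were discarded the sum of both copies lacks them too. For that sum the ratio to Ctrl was 0.792 in TP5 (0.772 to 0.812), 1.33 in sFD17 (1.30 to 1.36) and 0.643 in FR17 (0.627 to 0.660). FR17 held 0.483 of the sFD17 sum (0.471 to 0.495).

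The mRNAs of the members differ in how often their annotated 3′ untranslated regions hold the pentamer ATTTA, the core of the AU-rich elements through which short-lived cytokine mRNAs are marked for decay. The densest stretch of 30 bases in each ligand mRNA, is given here as DNA on the gene's strand with every ATTTA in capitals.
Csf2, chr11:54247329-54247358, minus strand: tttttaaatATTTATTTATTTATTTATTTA
Csf3, chr11:98702984-98703013, plus strand: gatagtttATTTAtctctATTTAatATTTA
Csf1, chr3:107741109-107741138, minus strand: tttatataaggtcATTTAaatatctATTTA
In the 3′ untranslated region of the longest coding transcript of each gene in GENCODE M21, ATTTA occurred 9 times in 317 bases of Csf2, 6 times in 669 bases of Csf3 and 4 times in 2111 bases of Csf1. Csf1r held 3, and Csf2ra, Csf2rb, Csf2rb2 and Csf3r held 0. Per kb, Csf2 had 28.4 and Csf3 8.97, more than 99.9% and 98.4% of the 20953 genes compared, of which 64.8% held at least 1. Csf1, with 1.89 per kb, and Csf1r, with 1.80, exceeded 62.5% and 60.8% of them. The extended element TTATTTATT occurred 4 times in Csf2, in no other member, and in 7.58% of all genes.

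Csf1 (ENSMUSG00000014599, GRCm38.p6 chr3:107741048-107760469, minus strand), the M-CSF gene, had the highest level of the ligand genes in these libraries. Which cells its transcripts came from was not tested. It was counted 5818 times in Ctrl, 4819 in TP5, 6363 in sFD17 and 4019 in FR17, or 344, 275, 482 and 175 CPM. FR17 held 0.508 of the Ctrl level (0.488 to 0.529), a log2 fold change of −0.98 just short of 2-fold, and TP5 held 0.798 (0.768 to 0.829). In sFD17 it stood at 1.40 times Ctrl (1.35 to 1.45), a difference that became 0.00 on the log2 scale when the libraries were centred on the neutrophil markers. Against its own receptor gene, Csf1 gave 0.532 counts per Csf1r count in sFD17, 0.362 in Ctrl, 0.312 in TP5 and 0.180 in FR17, so that FR17 held 0.496 of the Ctrl ratio and sFD17 1.47 times the Ctrl ratio.

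Csf3 (ENSMUSG00000038067, GRCm38.p6 chr11:98701263-98703629, plus strand), the G-CSF gene, differed most between libraries among the members above 100 counts. It was counted 326 times in Ctrl, 412 in TP5, 706 in sFD17 and 221 in FR17, or 19.3, 23.5, 53.5 and 9.63 CPM. In sFD17 it stood at 2.77 times Ctrl (2.43 to 3.17), at the 97.9 percentile of all genes. It was the 1 member at least 2-fold higher in sFD17 than in Ctrl, where 5.32% of all genes were higher by that fold, and no member was at least 2-fold lower, where 6.47% of all genes were. Centring on the neutrophil markers brought that log2 fold change from 1.47 to 0.98. FR17 held 0.499 of the Ctrl level (0.419 to 0.594), which the prior count of 2 placed at −0.99, and TP5 held 1.22 times Ctrl (1.05 to 1.41). Per neutrophil marker count, Csf3 stood at 2.05 times Ctrl in sFD17, 1.12 times in TP5 and 0.567 times in FR17. Fibroblasts, endothelial cells and macrophages are also known to make G-CSF. In sFD17 the summed fibroblast markers stood at 0.920 of Ctrl, the endothelial markers at 1.09 and the macrophage markers at 0.366, and their part in the Csf3 values was not tested. In the pattern of its 3 log2 fold changes Csf3 had 1 gene within 0.25, Gm16464, followed by Gm37498 and Gm44423, at largest differences of 0.216, 0.284 and 0.320.

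Csf2 (ENSMUSG00000018916, GRCm38.p6 chr11:54247271-54249667, minus strand), the GM-CSF gene, had the fewest counts of the members. It was counted 24 times in Ctrl, 11 in TP5, 12 in sFD17 and 62 in FR17, or 1.42, 0.627, 0.909 and 2.70 CPM, where 3 counts correspond to 0.131 to 0.227 CPM. FR17 held 1.90 times the Ctrl level (1.17 to 3.18) and TP5 held 0.441 of it (0.195 to 0.936). The sFD17 value of 0.640 of Ctrl had an interval from 0.292 to 1.33, and sFD17 and TP5 were not separated by counting error either, with a ratio of 1.45 (0.586 to 3.63). Csf2 was the 1 member at least 2-fold lower in TP5 than in Ctrl, where 4.99% of all genes were lower by that fold and 3.19% higher, with no member among the latter. Lymphocytes, innate lymphoid cells and mast cells are known sources of GM-CSF, and their markers were also higher in FR17. All 12 T cell, all 11 NK cell and all 10 basophil and mast cell markers were higher in FR17 than in Ctrl, at summed levels of 1.79, 2.83 and 2.41 times Ctrl, and the group 2 innate lymphoid cell markers stood at 1.54 times Ctrl. In TP5 the same 4 lists stood at 0.878, 0.789, 1.12 and 1.56 times Ctrl, and in sFD17 at 0.658, 0.870, 1.44 and 0.987. In the same order, 6 of 12, 3 of 11, 4 of 10 and 8 of 10 markers were higher than Ctrl in TP5. In sFD17 these were 3 of 12, 4 of 11, 4 of 10 and 7 of 10, and in FR17 the last list had 9 of 10 higher. These markers were present in all libraries, with 1 of the lists' genes, Tpsab1 in sFD17, at 0 counts. The rise in FR17 was not particular to these lists. The B cell, dendritic cell, endothelial, macrophage and alveolar epithelial markers stood at 1.19, 1.36, 1.31, 1.28 and 1.18 times Ctrl there. The neutrophil, monocyte and fibroblast markers stood at 0.88, 0.861 and 0.878. The part of any of these cells in the Csf2 values was not tested.

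**Figure D2:**
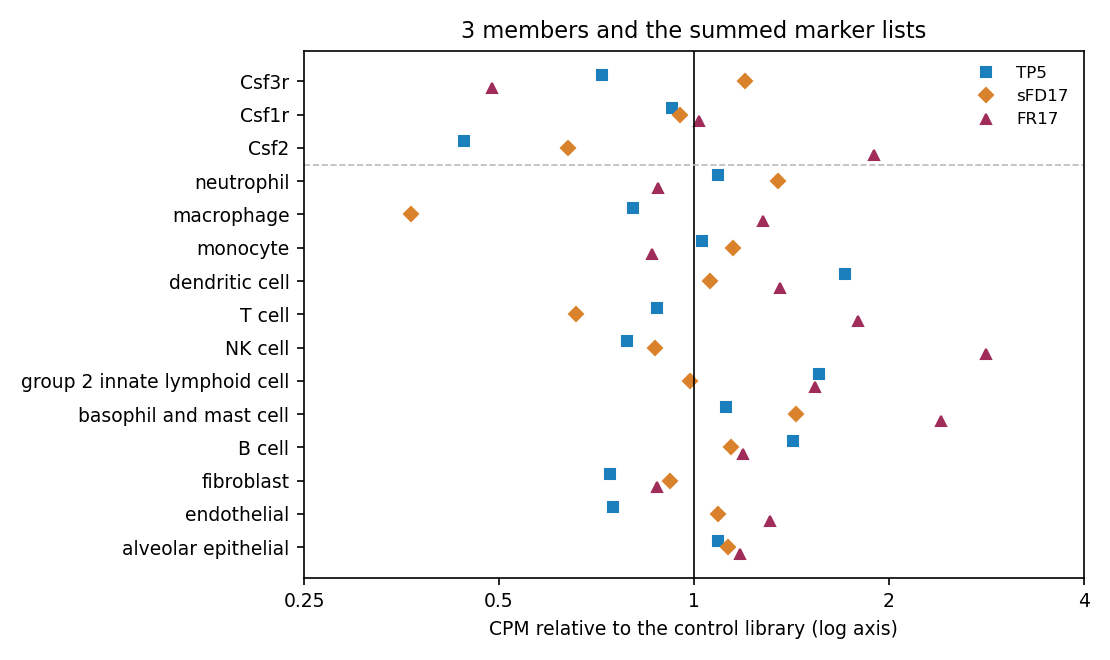
CPM of Csf3r, Csf1r and Csf2 and the summed CPM of 12 marker lists in the TP5, sFD17 and FR17 libraries relative to Ctrl (log axis, 1 point per library and row, no error bars). In FR17, Csf2 lies at 1.90 and the T cell, NK cell and basophil and mast cell markers at 1.79 to 2.83. Other lists also lie above 1 there, such as dendritic cell markers at 1.36 and endothelial markers at 1.31, while neutrophil, monocyte and fibroblast markers lie below 1. In sFD17 Csf1r lies at 0.953 while the macrophage markers lie at 0.366.

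The relatives of these ligands added little signal. Il3, which lies 15635 bases from Csf2, was at 0 counts in all 4 libraries, Il5 had 2 to 7 counts and Il34, the second CSF1R ligand, had 0 to 10. Of the 6 relatives 4 were tested, and against Ctrl the 2 past 2-fold rested on few counts, Il34 in TP5 with 0 against 6 and Ptprz1 in FR17 with 17 against 2, the latter named after its values were seen, where 4.99% of all genes were lower in TP5 and 3.91% higher in FR17. A count of 0 allows a level of up to 0.131 CPM in FR17 to 0.227 CPM in sFD17. Of the specific α chains that pair with the common β chain, Il3ra was counted 387 times in Ctrl, 455 in TP5, 254 in sFD17 and 612 in FR17, a ratio to Ctrl of 1.13, 0.840 and 1.16, and Il5ra was counted 24, 47, 13 and 40 times.

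Across the members, FR17 was lower than Ctrl in 6 of 8, with a median log2 fold change of −0.58 against 0.02 over all genes, and TP5 was lower in 7 of 8, with a median of −0.23 against 0.00. In sFD17, 6 of 8 were higher, with a median of 0.34 against −0.03. Over all genes, 47.7% were lower in FR17, 49.9% lower in TP5 and 48.0% higher in sFD17. Csf1, Csf2ra, Csf2rb, Csf2rb2 and Csf3r, 5 of 8 members, stood in 1 order, highest in sFD17, then Ctrl, then TP5 and lowest in FR17. That order was noticed after the values were seen, and 12.3% of the tested genes and 16.4% of those with at least 50 counts in every library had it. The 3 comparisons share the Ctrl library. Scaling moved these medians together with the median of all genes. By library size alone the median of all genes was −0.23 in sFD17 and 0.26 in FR17 and the members' medians were 0.12 and −0.34. Centred on the neutrophil markers, the median of all genes was −0.51 in sFD17 and 0.13 in FR17, the members' medians were −0.14 and −0.48, and 2 of 8 members, not 6, were above Ctrl in sFD17.

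**Figure D3:**
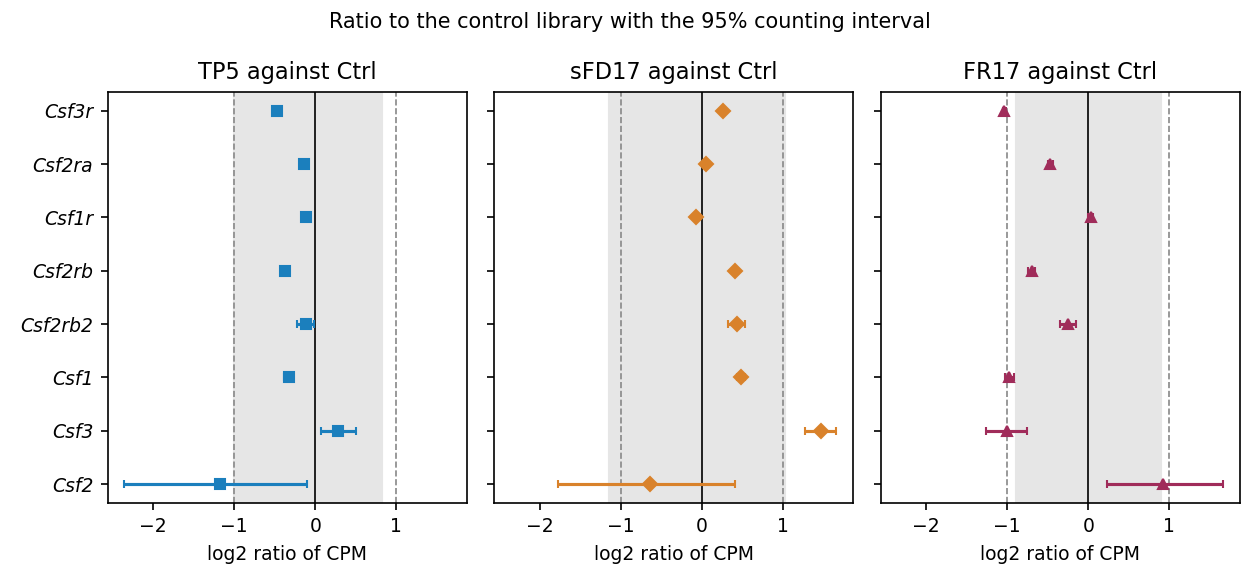
Log2 ratio of CPM of each gene to Ctrl in TP5, sFD17 and FR17, with the exact 95% counting interval as a bar, the middle 90% of log2 fold changes of all 16367 genes in grey and dashed lines at 2-fold. Csf3 in sFD17, at a ratio of 2.77, Csf3r in FR17, at 0.487, Csf2 in TP5, at 0.441, and Csf3 in FR17, at 0.499, lie outside both the grey band and the dashed lines, and Csf2 has the widest intervals.

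FR17 and sFD17 share the assembling backbone and the linker, were given at the same dose and differ in the order of the TP5 residues. They gave the largest contrast among the 3 peptides for Csf1, Csf2rb, Csf3 and Csf3r. FR17 held 0.180 of the sFD17 level of Csf3 (0.154 to 0.210), 0.363 of Csf1 (0.349 to 0.378), 0.405 of Csf3r (0.401 to 0.410) and 0.464 of Csf2rb (0.452 to 0.477), so that 4 members were at least 2-fold lower, where 10.8% of all genes were. Csf2 was at least 2-fold higher, at 2.97 times sFD17 (1.59 to 6.06), where 11.3% of all genes were. Csf2ra stood at 0.695 (0.679 to 0.711) and Csf2rb2 at 0.624 (0.583 to 0.668), and Csf1r at 1.07 (1.05 to 1.10). By library size alone the log2 fold change of Csf1r was 0.56 and that of Csf2ra −0.06. The median of the members was −0.89 against 0.07 over all genes. With library size alone, 2 members, Csf2 and Csf3, were called, and the log2 fold change of Csf3r was −0.84 and that of Csf2rb −0.65. Csf1 fell just short of 2-fold under that scaling. Both the median of all genes, 0.52, and the members' median, −0.43, moved up under that scaling.

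**Figure D4:**
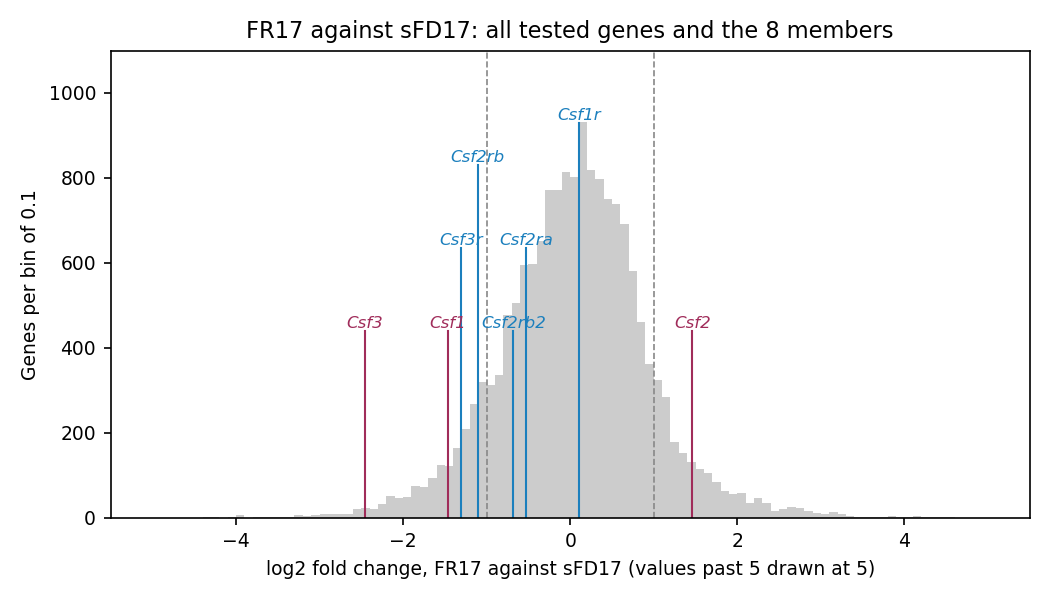
Distribution of log2 fold changes of FR17 against sFD17 over 16367 genes (grey, genes per bin of 0.1) with the receptor genes in blue, the ligand genes in red and dashed lines at 2-fold. Csf3 lies at −2.46, Csf1 at −1.46, Csf3r at −1.30 and Csf2rb at −1.11, and Csf2 lies at the opposite end at 1.46.

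FR17 and free TP5 share the active residues, on the backbone or alone. Of the members, 6 were lower and 2 higher in FR17, with a median of −0.33 against −0.02 over all genes, of which 52.2% were lower. Csf3 was at least 2-fold lower, at 0.410 of the TP5 level (0.346 to 0.484), where 2.88% of all genes were, and Csf2 at least 2-fold higher, at 4.31 times TP5 (2.25 to 9.07), where 7.04% were. Csf1 stood at 0.637 (0.611 to 0.665) and Csf3r at 0.675 (0.667 to 0.682), and the other 4 lay between 0.797 and 1.11. Centring on the neutrophil markers left Csf3 just short of 2-fold, and Csf2rb2 turned from −0.13 to 0.15 there and to 0.06 by library size alone, so that 5 members were lower and 3 higher.

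The scrambled assembling peptide was above free TP5 in all 8 members and in 46.7% of all genes. The median log2 fold change was 0.64 in the members against −0.04 over all genes. Csf3, at 2.28 times TP5 (2.01 to 2.58), was the 1 member at least 2-fold higher, where 6.74% of all genes were, and no member was at least 2-fold lower, where 5.64% were. Library size alone gave Csf3 0.92 on the log2 scale, and under that scaling and under centring on the neutrophil markers Csf1r and Csf2ra changed direction. Csf1 stood at 1.75 times TP5 (1.69 to 1.82), Csf2rb at 1.72 (1.67 to 1.76) and Csf3r at 1.67 (1.65 to 1.68), whereas Csf1r, at 1.03 (1.01 to 1.06), was nearly level. Of the 48 ratios over the 6 pairs of libraries, 2 had a counting interval that spanned 1, both for Csf2. At high counts such an interval leaves out 1 even for a nearly level gene, as for Csf1r here. The share over all genes was not worked out, so this count sets the members apart from no other genes.

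Downstream of the receptors, none of the 27 kinase, adaptor and STAT genes of receptor-proximal signaling reached 2-fold against Ctrl in any library, where 3.19% to 6.47% of all genes did in 1 direction. In sFD17, 26 of the 27 were higher than Ctrl, with a median of 0.31 against −0.03 over all genes, and in FR17, 24 were lower, with a median of −0.31 against 0.02. In TP5, 12 were higher and 15 lower, with a median of −0.03. Over all genes, 48.0% were higher in sFD17, 47.7% lower in FR17 and 49.9% lower in TP5. Other scalings shift every gene of a library alike. With the neutrophil markers as the reference, which put the median of all genes at −0.51 in sFD17 and 0.13 in FR17, 8 of the 27 were above Ctrl in sFD17 and 21 below it in FR17. By library size alone, with that median at −0.23 and 0.26, these counts were 20 and 16. In TP5 Ptpn11, the gene of the phosphatase SHP2, stood at 1.44 times Ctrl (1.34 to 1.55). In FR17 Stat3, which acts below G-CSF, stood at 0.627 (0.609 to 0.645), and the kinase gene Fgr at 0.632 (0.614 to 0.651).

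Of the 14 STAT target and feedback genes, 11 were higher and 3 lower in sFD17, with a median of 0.41 against −0.03 over all genes. Over all genes, 48.0% were higher in sFD17, 50.1% in TP5 and 52.3% in FR17. In TP5 and in FR17 alike 5 were higher and 9 lower, with medians of −0.11 against 0.00 and −0.21 against 0.02. With the shift of all genes under the other scalings, these counts moved as well, to 5 higher in sFD17 with the neutrophil markers as the reference and to 8 higher in FR17 by library size alone. Only Cish, a feedback inhibitor of STAT5 signaling, reached 2-fold against Ctrl, at 2.22 times in sFD17 (1.97 to 2.50), that is 1 of 14 where 5.32% of all genes were higher by that fold. Its log2 fold change of 1.15 was 0.93 by library size alone and 0.66 with neutrophil marker centring. Bcl3 had 1.85 times Ctrl in sFD17 and 0.613 in FR17. In FR17 Pim1, a kinase gene induced by STATs, stood at 0.595 (0.588 to 0.602). TP5 held 0.624 of the Ctrl level of Bcl2l1, a survival gene, and 1.33 times that of Cish.

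Among 12 transcription factors of the receptor genes, none reached 2-fold against Ctrl, where 3.19% to 6.47% of all genes did in 1 direction. Cebpe, a factor of late granulocyte maturation, stood at 1.79 times Ctrl in TP5 (1.59 to 2.00) and 1.87 times in sFD17 (1.66 to 2.10), and Myb at 1.46 times in TP5. Cebpa stood at 0.517 in sFD17 (0.485 to 0.551), a log2 fold change of −0.95 that passed 2-fold by library size alone (−1.17) and with neutrophil marker centring (−1.43), and in FR17 Ets2 stood at 0.531 and Cebpb, the factor of emergency granulopoiesis, at 0.658. Of 17 tested inducers of the ligand genes, 2 were at least 2-fold higher and 3 lower than Ctrl in sFD17, and 2 higher and 0 lower in FR17. Over all genes these shares were 5.32% and 6.47% in sFD17 and 3.91% and 3.57% in FR17. By library size alone and with neutrophil marker centring no inducer was at least 2-fold higher in sFD17. Nfkb2, an NF-κB subunit gene, stood at 2.17 times Ctrl in sFD17 (2.10 to 2.25) while Il6 stood at 0.434 (0.391 to 0.480). In FR17 Ifng stood at 2.75 times Ctrl on 56 against 15 counts (1.53 to 5.23), and Tslp at 1.86 times on 53 against 21. In TP5 Il1a stood at 0.736 and Tlr4 at 0.813. Exons of Ifng share 336 bases with Gm49751, read from the same strand and counted 0 to 9 times, and those of Nfkb2 share 299 bases with Psd on the opposite strand, a gene with 2078 to 3421 counts.

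The 12 genes of AU-rich mRNA decay included none at 2-fold against Ctrl, beside the same background of 3.19% to 6.47%, and 1, Parn in sFD17, with neutrophil marker centring. Zc3h12a, whose product regnase-1 degrades cytokine mRNAs, stood at 1.44 times Ctrl in sFD17 (1.39 to 1.49) and 0.668 in FR17 (0.645 to 0.692). Parn stood at 0.649 in sFD17 and Rc3h2 at 0.714 in FR17, and in TP5 Zfp36l1 stood at 0.826 and Elavl1 at 1.19. The list of other growth factor and cytokine receptors had 21 tested genes and also held the ligand genes Kitl and Flt3l. Of the 21, 3 were at least 2-fold lower and 1 higher in TP5, 2 were lower in sFD17 and none in FR17. Kitl was among the lower genes in TP5 and in sFD17. Over all genes, 4.99% were lower and 3.19% higher in TP5, 6.47% lower in sFD17 and 3.57% lower in FR17. Epor, the erythropoietin receptor gene, was counted 74 times in Ctrl, 19 in TP5 and 14 in sFD17. Ghr had 55 counts in Ctrl and 16 in TP5, and Kitl, the stem cell factor gene, had 237 in Ctrl and 84 in sFD17. In FR17 the decoy receptor gene Il1r2 stood at 0.608 of Ctrl (0.599 to 0.617) and Tnfrsf1b at 0.676 (0.659 to 0.693).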

How the data were processed

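RNA of sorted lung CD11b+Ly6g+ cells was sequenced in 4 libraries, 1 per group. The authors deposited raw gene counts. Per the labels and the submitters' processing notes, reads were handled with HISAT2 2.0.5, StringTie 1.3.3b, featureCounts 1.5.0-p3 and edgeR 3.18.1 on GRCm38.p6, and whether counting used strand is not given in the sources used here. Counts of genes with at least 10 counts in 1 library were scaled by TMM in edgeR 4.0.16 and compared as log2 CPM with a prior count of 2. With 1 library per group no residual spread exists, so a fold of at least 2 was the call, and ratios of 2 counts had exact conditional binomial 95% intervals. Intervals and the floor of 3 counts cover counting error only. The code was tested on simulated data. Positions of elements were read from GENCODE M21, whose start and end matched the deposited ones for 6 of 8 members (Csf2ra and Csf1r differed). Genes named beside the members were, from each of 7 pathway lists, the 2 with the largest change against Ctrl among genes that reached 50 counts in either library of the pair, and the 3 genes closest in pattern to Csf3 and Csf3r, and some genes that this rule names are not reported here. Marker lists held 136 genes. The members and lists were chosen with earlier results of these data known.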

Additional observations from a re-analysis of the deposited data

How the results depend on the processing

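No paired analysis was possible because each group was 1 library, and for the same reason no library could be left out. Under 6 to 7 alternatives of scaling, filter and prior count, the call of Csf3r in FR17 against Ctrl was lost by library size alone (−0.79), neutrophil marker centring (−0.94) and no filter (−0.96), and Csf3 in FR17 reached 2-fold with DESeq2 size factors and with a prior count of 0.5. Against sFD17, FR17 lost Csf3r, Csf1 and Csf2rb by library size alone and under neutrophil marker centring (−0.78, −0.93 and −0.58 under the latter), and Csf2rb also with no filter. Csf1 by library size alone and Csf2rb with no filter fell just short of 2-fold. With the same centring Csf2ra (−0.43), Csf3r (−0.22), Csf2rb (−0.07) and Csf2rb2 (−0.05) fell below Ctrl in sFD17. Library size alone also brought Csf2 in FR17 past 2-fold against Ctrl, and neutrophil marker centring brought Csf2 past it in sFD17 and took the call from Csf3 in sFD17 (0.98 against Ctrl, 0.84 against TP5) and, just short of 2-fold, in FR17 against TP5. Depth limits Csf2 most. The exact tests take their spread from 4 libraries treated as 1 group or from a fixed value and are no replicate check.

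All counts here are of genes past the threshold. TP5 against Ctrl gave 3095 with no filter, 503 with at least 10 counts in every library, 3407 at 1.5-fold, 324 with the exact test and trended dispersion, 151 at a fixed biological coefficient of variation of 0.4 and 302 with 2-fold and the exact test, against 1338. In the same order, sFD17 against Ctrl gave 4211, 914, 4750, 791, 388 and 739, and 3319 with neutrophil marker centring, against 1930. FR17 against Ctrl gave 2890, 447, 3712, 305, 153 and 272 against 1225. FR17 against TP5 gave 3173, 714, 4005, 601, 273 and 580 against 1623. FR17 against sFD17 gave 5651, 2315, 7532, 2073, 829 and 1955, and 5528 with neutrophil marker centring, against 3611. sFD17 against TP5 gave 3761, 980, 5199, 760, 309 and 715 against 2026. The trended exact test held Csf3 in sFD17 and in FR17 against Ctrl, Csf1, Csf2rb, Csf3 and Csf3r in FR17 against sFD17, Csf2 and Csf3 in FR17 against TP5 and Csf3 in sFD17 against TP5. At the fixed value it held Csf2 in FR17 against TP5 and Csf3 in FR17 against sFD17.

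The share of calls that were higher moved with the scaling. It was 52.2% in FR17 against Ctrl, 77.5% by library size alone and 65.9% with neutrophil marker centring. In sFD17 against Ctrl it was 45.1%, 27.4% and 10.1%, in FR17 against TP5 71.0%, 83.6% and 89.2%, in FR17 against sFD17 51.1%, 84.3% and 88.4%, and in sFD17 against TP5 54.4%, 30.1% and 21.7%. The cause was not tested.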
